A study of Mus musculus with 6 samples.

Results

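Accessible chromatin around 7 genes of the Wnt and β-catenin pathway was examined in R1 mouse embryonic stem cells. The genes were Axin2, Lef1, Tcf7, Tcf7l1, Sp5, Cdx1 and Ctnnb1, chosen by name. The regions analysed are those whose midpoint lies inside a gene or within 50 kb of its annotated limits, 107 distinct regions of 69689 in all. Chromatin was profiled by ACC-seq, in which the transposase Tn5 cuts and tags open DNA. There were 6 libraries of wild-type cells, 2 per group. Fresh nuclei were tagmented at 37 °C without fixation. Fix cells first received 1% formaldehyde for 10 min and were tagmented at 55 °C. Fix_1,6-Hex cells were exposed to 10% (w/v) 1,6-hexanediol, an alcohol that disperses many protein condensates, for 30 s before the same fixation and also during it. R1 is a single established line. All groups were grown in serum and LIF with both inhibitors of the 2i cocktail, 3 μM CHIR-99021 against the kinase GSK3 and 1 μM PD0325901 against MEK, on fibroblast feeders that were later depleted by replating. No group was grown without GSK3 inhibition, so its effect cannot be read from these data.

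Wnt signalling works through the stability of β-catenin, the product of Ctnnb1. A destruction complex built on AXIN scaffolds lets GSK3 mark β-catenin for degradation, and Wnt ligands or GSK3 inhibitors release it. β-catenin then enters the nucleus and binds the TCF/LEF proteins LEF1, TCF7, TCF7L1 and TCF7L2, which recognise short DNA motifs around CTTTG. In mouse embryonic stem cells TCF7L1 is known mainly as a repressor of self-renewal genes, and Axin2, Sp5, Cdx1, Lef1 and Tcf7 are widely used target genes.

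The deposited table gives each region a position and the name of 1 of 9 clusters. It has no value per library. No difference between Fresh, Fix and Fix_1,6-Hex could therefore be computed, the depth of the libraries is unknown, and the signal pattern that each cluster name stands for is unknown here. Values below are positions, widths and counts from this one list, so they have no replicate error and no test was made. Of 6 stem cell marker genes (Nanog, Pou5f1, Sox2, Zfp42, Esrrb, Klf4), 6 had a region with its midpoint within 1 kb of a gene limit, and so did 5 of 6 fibroblast markers (Col1a1, Col1a2, Thy1, Pdgfrb, Twist2, but not Col3a1), beside 60.9% of all protein-coding genes. A region covered a listed start in 6 of 6 stem cell markers, with a median width of 3870 bp, and in 2 of the 3 fibroblast markers with a listed start, with a median of 1530 bp. It was 2 kb or wider in 5 of those 6 stem cell markers and 0 of those 2 fibroblast markers. Over all protein-coding genes with a listed start 61.4% had one covered, and of these 19.4% had a start region of 2 kb or wider. The part of feeder cells in any region was not tested.

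The promoters of the members differ in their letters, and 4 windows are shown because they hold the contrast between a window with TCF/LEF motifs and windows without. Each holds the 250 bases before a listed start, 5′ to 3′ on the gene's strand, from RefSeq (GRCm38.p6, the assembly also called mm10). Capitals mark matches, on either strand, to CTTTG followed by AA, AT, TA or TT. No matches overlapped in the windows shown.
Sp5 (chr2:70474673-70474922, plus strand): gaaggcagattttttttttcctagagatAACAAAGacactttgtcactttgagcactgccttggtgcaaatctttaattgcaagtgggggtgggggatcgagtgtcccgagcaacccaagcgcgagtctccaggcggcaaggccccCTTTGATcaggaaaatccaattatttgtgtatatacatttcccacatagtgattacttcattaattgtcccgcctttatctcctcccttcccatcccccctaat
Lef1, internal start (chr3:131156044-131156293, plus strand): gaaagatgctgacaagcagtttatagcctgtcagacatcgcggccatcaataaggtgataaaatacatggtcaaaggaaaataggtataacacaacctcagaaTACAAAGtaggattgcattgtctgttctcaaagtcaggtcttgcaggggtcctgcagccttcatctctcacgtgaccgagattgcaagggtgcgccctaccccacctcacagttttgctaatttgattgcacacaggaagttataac
Axin2 (chr11:108920099-108920348, plus strand): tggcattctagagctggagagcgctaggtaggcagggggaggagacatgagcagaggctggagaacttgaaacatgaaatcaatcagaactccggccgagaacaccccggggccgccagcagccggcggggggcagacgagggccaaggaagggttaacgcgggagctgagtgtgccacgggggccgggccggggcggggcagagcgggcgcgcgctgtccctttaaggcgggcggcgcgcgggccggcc
Ctnnb1 (chr9:120933150-120933399, plus strand): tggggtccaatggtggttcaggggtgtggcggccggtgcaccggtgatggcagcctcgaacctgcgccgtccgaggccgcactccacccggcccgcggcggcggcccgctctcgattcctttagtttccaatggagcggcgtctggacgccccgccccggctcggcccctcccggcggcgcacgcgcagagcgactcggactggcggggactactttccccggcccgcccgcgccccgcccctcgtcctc

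The Sp5 window had 2 matches, CTTTGTT on the opposite strand beginning 222 bases before the start and CTTTGAT on the gene's strand beginning 104 bases before it. The table holds 11 windows for 6 of the 7 genes, and 2 of these had a match. Over all 32851 windows of this length 14.8% had at least 1 match and 1.43% had 2 or more. The second member window with a match belonged to an internal start of Lef1, inside the gene, which no region covered. The Sp5 window was also the least GC-rich of the windows that lay at a covered start, with 46.0% G and C and 6 CpG, against 69.2% and 24 CpG for Axin2, 73.6% and 29 for Tcf7l1 and 74.8% and 35 for Ctnnb1 (first window). The median over all windows was 52.4% and 6 CpG. A match is a description of letters, not evidence of binding, and windows without a match say nothing about TCF/LEF factors elsewhere in the region.

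A broad accessible region lay over a listed start of each of the 6 members that have one. Over the whole list no 2 adjacent regions were closer than 1001 bp. Whether a broad region joins several narrower ones was not tested. The region was 3962 bp wide at Ctnnb1, 3458 bp at Axin2, 3262 bp at Sp5, 2901 bp at Tcf7l1, 2597 bp at Lef1 and 2185 bp at Tcf7. All 6 were thus 2 kb or wider, whereas the median over the 10739 protein-coding genes with a covered start was 1214 bp (quartiles 863 and 1781 bp). The 2 kb limit was not planned and lies just below the narrowest of the 6. Only Ctnnb1, Axin2 and Sp5 were 3 kb or wider, and Sp5 was wider than 94.5% of genes with a covered start. Coverage itself was common. Of protein-coding genes with a listed start, 61.4% had at least 1 start inside a region, and of these 19.4% had a start region of 2 kb or wider. The member with the narrowest start region, Tcf7, was wider than 84.5% of those genes, and Ctnnb1 was wider than 97.1%. Of 11 listed member starts 9 lay in a region, the exceptions being 2 internal starts of Lef1.

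**Figure D1:**
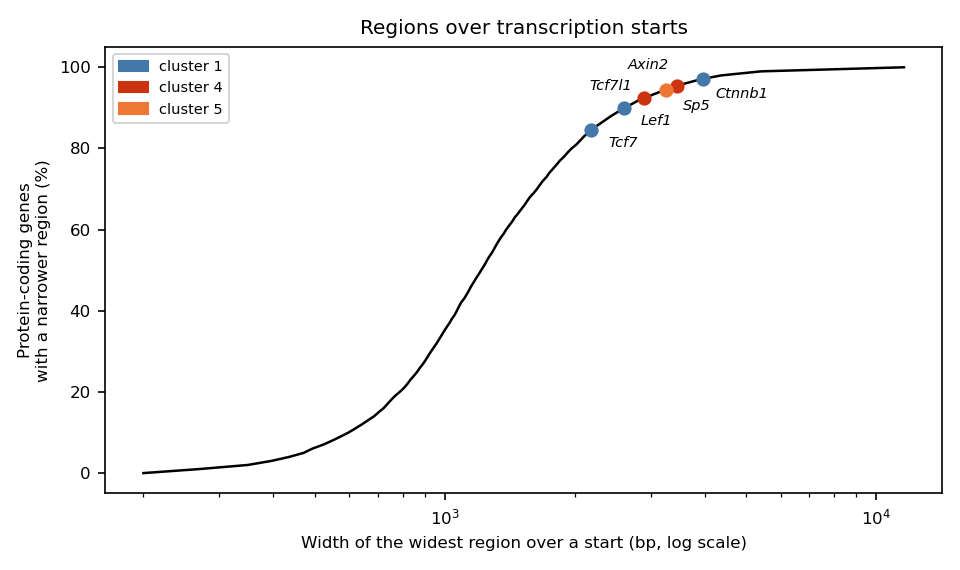
Cumulative curve of the width of the widest region over a listed start for 10739 protein-coding genes (x axis in bp, log scale) against the percentage of genes with a narrower region. Points are the 6 members with a listed start, coloured by cluster, and lie between 2185 and 3962 bp in the upper part of the curve.

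These similar start regions carried different cluster names. Those of Ctnnb1 (chromosome 9, 120932691 to 120936652), Lef1 (chromosome 3, 131110056 to 131112652) and Tcf7 (chromosome 11, 52282456 to 52284640) were in cluster 1. Those of Axin2 (chromosome 11, 108919932 to 108923389) and Tcf7l1 (chromosome 6, 72786986 to 72789886) were in cluster 4, and that of Sp5 (chromosome 2, 70473964 to 70477225) was in cluster 5. Over all genes with a covered start, cluster 1 held 17.6%, cluster 4 held 14.8% and cluster 5 held 4.78%. Cluster 8 held the largest share over all genes, 24.0%, and none of these 6 starts. The widest region of Cdx1 (chromosome 18, 61033312 to 61036904, 3593 bp) was in cluster 8 and covered the upper limit of the gene.

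By the narrower rule of a midpoint within 1 kb of an annotated limit, 3 of 7 members (Tcf7, Tcf7l1 and Sp5) had a gene-end region, against 60.9% of 21883 protein-coding genes. The midpoints of the broad regions at Lef1 and Ctnnb1 lay 1.06 kb and 1.27 kb inside the gene, just past that distance, and the midpoint at Cdx1 also lay more than 1 kb inside. With any overlap of a limit, 6 of 7 members had a region (55.3% of all genes). The exception was Axin2, whose covered start lies inside the outermost annotated limit. With 2.5 kb, 7 of 7 members had a region (69.8% of all genes), and with 500 bp 1 of 7 (49.3%). At Axin2 the region within 2.5 kb was a cluster 9 region of 285 bp near the upper limit, not the start region.

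The loci differed widely in the number of regions. Tcf7l1 had 35 regions within 50 kb, Axin2, Lef1 and Cdx1 had 14 each, Tcf7 had 13, Ctnnb1 had 10 and Sp5 had 7. The median over all protein-coding genes was 7 (quartiles 3 and 11), so Sp5 lay at the median and the other 6 above it. Long genes span more sequence. Per 100 kb of window the counts were 13.3 at Tcf7l1, 11.9 at Cdx1, 10.5 at Axin2, 9.50 at Tcf7, 7.87 at Ctnnb1, 6.81 at Sp5 and 6.54 at Lef1. All 7 were above the median of 4.74 over all genes, and Lef1, Sp5 and Ctnnb1 were below the upper quartile of 8.37.

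**Figure D2:**
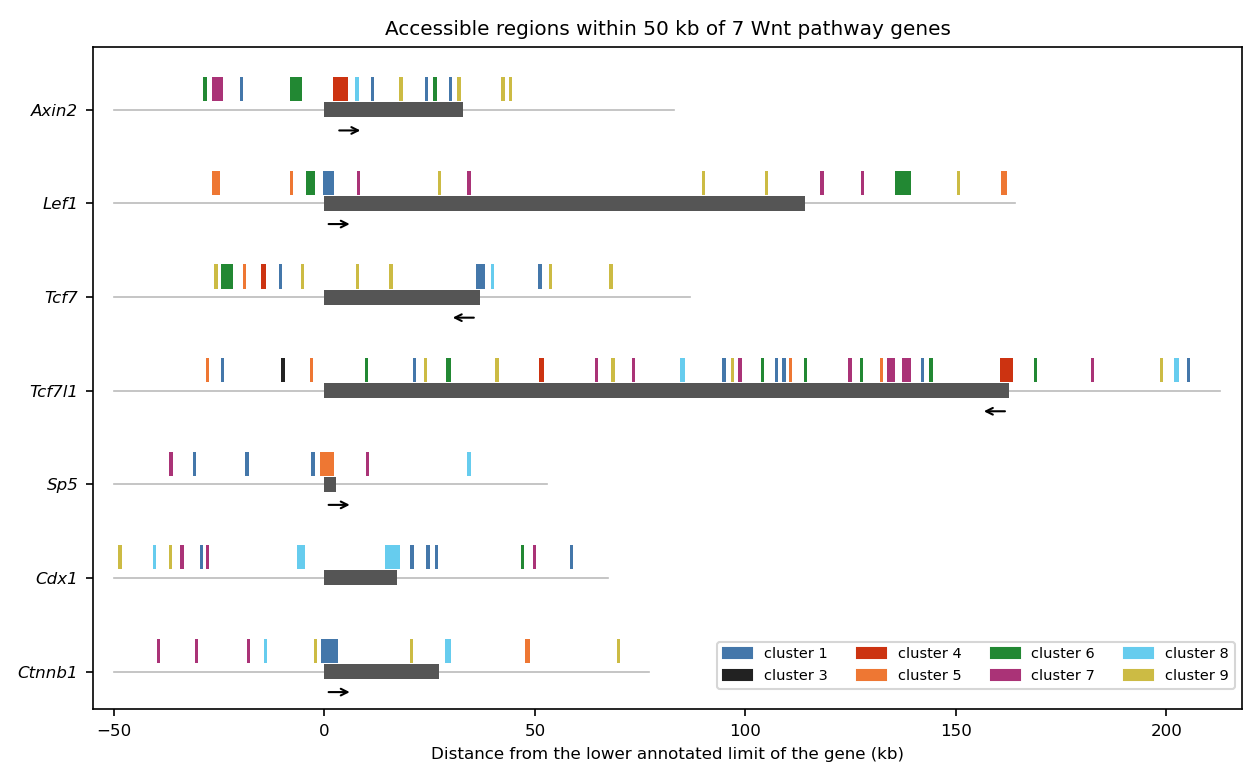
Position of each region within 50 kb of the 7 genes, in kb from the lower annotated limit. Grey bars are genes, arrows mark the first listed start and its direction where one is listed (all but Cdx1), and coloured blocks are regions by cluster, drawn to scale but at least 0.8 kb wide so that narrow ones can be seen. Tcf7l1 holds 35 regions, with a crowded stretch whose midpoints lie 18.7 to 68.0 kb into the gene from its start.

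The 107 regions were also counted by cluster and set beside the whole list. Clusters 1 and 9 held 24 regions each (22.4%, exact binomial 95% interval 14.9 to 31.5), cluster 7 held 20 (18.7%), cluster 6 held 14 (13.1%), clusters 5 and 8 held 10 each (9.35%, interval 4.57 to 16.5), cluster 4 held 4 (3.74%) and cluster 3 held 1 (0.935%). Over all regions the shares were 18.7% for cluster 1, 26.2% for cluster 9, 18.9% for cluster 7, 12.7% for cluster 6, 5.06% for cluster 5, 9.04% for cluster 8, 3.47% for cluster 4 and 3.61% for cluster 3. Each of these shares fell inside the interval around the share near the 7 genes. With 107 regions the intervals are wide, so this does not show that the shares were alike. Cluster 5 had 9.35% against 5.06%, and cluster 3 had 0.935% against 3.61%. Cluster 2 had 0 of 107 regions, which allows a share of up to 2.80% by the limit of 3 counts and 3.39% by the exact binomial interval, and its share over all regions was 2.27%. The intervals cover counting error alone and treat neighbouring regions as independent.

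**Figure D3:**
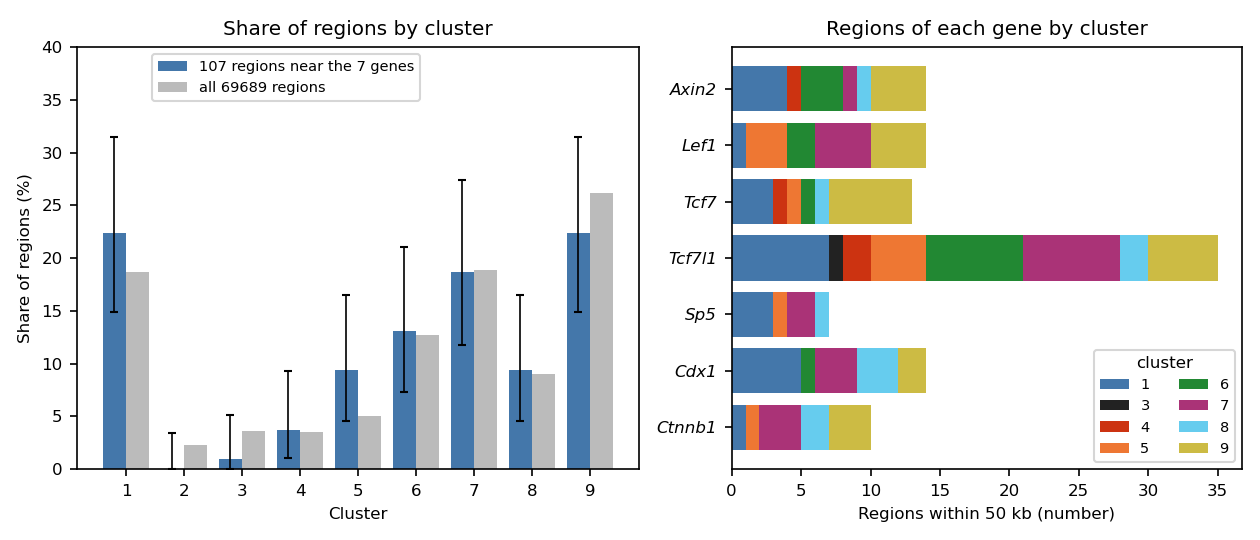
Left, share of regions per cluster for the 107 regions near the 7 genes (blue, with exact binomial 95% intervals) and for all 69689 regions (grey), in percent. Right, number of regions per gene by cluster, from 7 at Sp5 to 35 at Tcf7l1.

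Only cluster 1 occurred at all 7 genes, a cluster present within 50 kb of 63.3% of protein-coding genes. Cluster 7 occurred at 6, all but Tcf7 (57.2% of protein-coding genes). Cluster 8 occurred at 6, all but Lef1 (48.6%), and cluster 9 at 6, all but Sp5 (67.5%). Cluster 6 was present at 5 of 7 genes, being absent at Sp5 and Ctnnb1 (43.9%). Cluster 5 was also present at 5, being absent at Axin2 and Cdx1 (23.3%). These shares over all genes include genes with few regions, and the 7 genes had a median of 14 regions. Adjacent regions of a locus had the same cluster in 17 of 100 pairs (17.0%). Over all adjacent pairs no further apart than the widest gap within these loci, 19.3% did.

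The scaffold gene Axin2, whose product limits β-catenin in a negative feedback loop (chromosome 11, 108917828 to 108950783), had 14 regions in 6 clusters. Its cluster 4 start region was followed inside the gene by a cluster 8 region of 848 bp whose midpoint was 5.16 kb past the start. Further in lay cluster 1 regions of 226, 551 and 563 bp at 8.58, 21.6 and 27.3 kb, a cluster 6 region of 534 bp at 23.6 kb, and cluster 9 regions of 205 and 285 bp at 15.4 and 29.2 kb. The gene body thus held many narrow regions and 1 broad one. Upstream of the gene lay 2 more broad regions. A cluster 6 region of 2971 bp (108909609 to 108912579) was 6.73 kb outside the gene and covered a limit of the non-coding RNA gene Gm46298. A cluster 7 region of 2534 bp (108891145 to 108893678) was 25.4 kb outside, flanked by a cluster 6 region of 539 bp and a cluster 1 region of 552 bp. That cluster 7 region was wider than 98.9% of its cluster. Downstream there were 2 cluster 9 regions, of 215 and 415 bp, and the nearest protein-coding gene of all 14 regions was Axin2.

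Sp5 encodes a zinc finger factor of the SP family and is a short gene (chromosome 2, 70474923 to 70477726). Its cluster 5 region of 3262 bp reached over most of the gene and took in both motif matches printed above. This region was wider than 97.1% of cluster 5. Upstream lay 3 cluster 1 regions of similar width, 551 bp at 2.80 kb, 615 bp at 18.5 kb and 577 bp at 30.9 kb, and a cluster 7 region of 200 bp at 36.8 kb. Downstream lay a cluster 7 region of 424 bp at 7.23 kb and a cluster 8 region of 789 bp at 31.6 kb, the latter at an end of Erich2. Sp5 was the only one of the 7 genes without a cluster 9 region.

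Cdx1, a caudal-type homeobox gene of the posterior body axis (chromosome 18, 61018862 to 61036199), had 14 regions, of which 1 lay inside the gene. That region was the broad cluster 8 region over the upper limit, and it also covered a limit of Gm52351, which overlaps Cdx1 there. A second cluster 8 region of 2035 bp lay 5.56 kb below the lower limit, and another of 694 bp lay 40.4 kb below it. Above the gene 3 cluster 1 regions followed in a row, 840 bp at 3.48 kb, 281 bp at 6.99 kb and 342 bp at 9.01 kb. The last of them covered a limit of Pdgfrb, a receptor gene that also stands in the fibroblast marker list. A further cluster 1 region of 418 bp lay 41.2 kb above. Only 1 of the 14 regions had Cdx1 as its nearest protein-coding gene, so this count describes a neighbourhood shared with Camk2a, Slc6a7 and Pdgfrb. No start or strand was used for Cdx1.

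Ctnnb1 itself (chromosome 9, 120933400 to 120960507) had 10 regions, of which 2 lay inside. The broad cluster 1 region took in both listed starts and was wider than 99.2% of cluster 1. Elsewhere in the gene there was a cluster 9 region of 248 bp at 20.5 kb. Upstream stood 3 cluster 7 regions of 326, 315 and 473 bp at 39.7, 30.6 and 18.2 kb, a cluster 8 region of 576 bp at 14.0 kb and a cluster 9 region of 354 bp at 2.39 kb. Downstream, a cluster 8 region of 1526 bp lay 2.19 kb past the gene, between Ctnnb1 and Ulk4, followed by a cluster 5 region of 1029 bp at 21.1 kb and a cluster 9 region of 490 bp at 42.6 kb.

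Lef1, which encodes an activating TCF/LEF factor (chromosome 3, 131110297 to 131224357), had 6 regions inside its 114.1 kb, and apart from the start region they were 248 to 360 bp wide. Of these 5 narrow regions, 3 belonged to cluster 9 and 2 to cluster 7. A cluster 6 region of 3862 bp (131245870 to 131249731) lay 23.4 kb downstream, within the neighbouring gene Hadh, and was wider than 98.0% of its cluster. Another cluster 6 region, of 2109 bp, lay 3.37 kb upstream and covered a limit of the non-coding RNA gene Gm36603. The 3 cluster 5 regions were 635 bp at 7.91 kb upstream, 1873 bp at 25.7 kb upstream and 1277 bp at the far end of Hadh. The widest gap between adjacent regions at any of the 7 genes, 55359 bp, was inside Lef1.

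Tcf7, which encodes TCF1 (chromosome 11, 52246527 to 52283383), had 2 regions with their midpoint inside the gene, cluster 9 regions of 459 and 333 bp. The start region overlapped the gene, but its midpoint lay 0.165 kb upstream of the limit. The 13 regions of Tcf7 included 6 of cluster 9, the largest share of that cluster among the 7 genes. Upstream of the cluster 1 start region came a cluster 8 region of 738 bp at 3.08 kb, a cluster 1 region of 451 bp at 14.2 kb and cluster 9 regions of 200 and 693 bp at 16.5 and 31.1 kb. The downstream side belongs to Skp1, which overlaps the lower limit of Tcf7 and codes for a ubiquitin ligase subunit. There a cluster 4 region of 1200 bp lay over the start of Skp1, and a cluster 6 region of 2918 bp (52221928 to 52224845) lay 23.1 kb from Tcf7. Of the 13 regions 7 had Tcf7 as the nearest protein-coding gene.

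Tcf7l1 (chromosome 6, 72626371 to 72789045) had by far the most regions of the 7 genes, and 26 of its 35 lay inside the gene. Only 33 of 21883 protein-coding genes, Tcf7l1 included, had as many regions or more within 50 kb. Among the 1707 protein-coding genes that are 100 to 250 kb long, the median was 9 regions. Of these genes 13, again with Tcf7l1 included, had as many as Tcf7l1 or more. A stretch of the gene from 72720901 to 72770539 held 15 regions within 50 kb. Counting from each of the 69689 regions in turn, 15 was the highest number in any 50 kb of the table, and it was reached from 2 of them. The other gene with 15 was Cd9, a tetraspanin, and the median was 4. This count was made after the number of Tcf7l1 regions had been seen.

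The crowded stretch mixed 5 clusters, with 4 regions each of clusters 1, 6 and 7, 2 of cluster 5 and 1 of cluster 9. The midpoints of its regions lay 18.7 to 68.0 kb into the gene from the start. The widest were cluster 7 regions of 1950 bp (72763683 to 72765632) and 1729 bp (72760132 to 72761860), which stood next to each other at 24.4 and 28.0 kb. They were wider than 97.3% and 96.1% of cluster 7. The 4 cluster 6 regions were 453, 616, 781 and 734 bp wide at 18.7, 35.1, 48.4 and 58.6 kb, and the cluster 1 regions were 255 to 440 bp wide. Between the start region and this stretch there was a gap of 16446 bp without a region.

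The rest of Tcf7l1 was less dense. Farther into the gene lay a cluster 8 region of 1180 bp at 77.6 kb, a cluster 4 region of 1083 bp at 111.1 kb and a cluster 6 region of 1206 bp at 133.2 kb, among narrower regions of 296 to 459 bp from clusters 1, 6, 7 and 9. Cluster 4, the cluster of the start region, thus occurred a second time inside the gene, where the non-coding RNA gene Gm31391 has a listed start. Upstream of Tcf7l1 5 regions of clusters 6, 7, 9, 8 and 1 lay 6.18 to 42.4 kb away. Downstream, a cluster 3 region of 949 bp covered an end of Tgoln1, and a cluster 5 region of 857 bp covered ends of both Elmod3 and Retsat. The cluster 3 region was the only one of its cluster near the 7 genes.

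The 107 regions had a median width of 505 bp (lowest 200, highest 3962), and the median of all regions was 474 bp. Of the 107, 13 were 2 kb or wider (12.1%, against 6.28% of all regions). These 13 comprise the 6 start regions, the broad region over the upper limit of Cdx1, and 6 others. Of those 6 others, 4 belonged to cluster 6, 1 to cluster 7 and 1 to cluster 8. Regions with a midpoint within 1 kb of a protein-coding gene limit made up 9 of 107 (8.41%), against 18.9% of all regions. The start regions of Lef1 and Ctnnb1 cover a limit but fall outside this count by their midpoints.

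Most other genes of the pathway with a listed start had it inside a region. The list had 97 entries in 6 roles, of which 96 matched a protein-coding gene, and 65 of these had a listed start. Of the 65, 60 had a start inside a region, beside 61.4% of all protein-coding genes with a listed start. The same 61.4% is the background for each count of covered starts by role below. Of the 60, 24 had a start region of 2 kb or wider, beside 19.4%, and the median width was 1726 bp. By the 1 kb rule, 77 of 96 had a gene-end region, beside 60.9%. The list was chosen by hand and no test was made.

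Ligands and receptors stand at the top of the pathway. Of 15 covered starts among ligands and secretion genes, 8 were in cluster 1, which held 17.6% of all covered starts. Among them were Wnt1 (697 bp) and Wnt2b (619 bp), while the start of Wnt2 was in a cluster 7 region of 319 bp. Of 8 covered starts of Frizzled, LRP and LGR receptors 2 were in cluster 1, beside the same 17.6%. Fzd1, a Frizzled receptor, had a cluster 8 start region of 1873 bp, and gene-end regions of Fzd2 (2932 bp, cluster 8) and Fzd3 (1094 bp, cluster 1) were also found. Antagonists had 6 of 8 starts covered, and 4 of those 6 were in cluster 1, beside the same 17.6%. Dkk1, a secreted LRP5 and LRP6 inhibitor, had a cluster 6 region of 1107 bp there, Dkk2 had none at its listed start, and Dkk3 had a cluster 7 gene-end region of 1517 bp. The difference between the roles was not tested.

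For the destruction complex and its regulators 8 of 8 listed starts were covered, among them that of Apc2 by a cluster 8 region of 1192 bp. Apc and Axin1 had no region within 1 kb of a limit by midpoint, and had 11 and 14 regions within 50 kb. The genes for GSK3, the kinase that CHIR-99021 inhibits, are named here after their values were seen. Gsk3b had a cluster 2 start region of 1925 bp. That cluster occurred at none of the 7 genes, and within 50 kb of only 19.3% of all protein-coding genes. Gsk3a had a cluster 4 start region of 2175 bp, the cluster of the Axin2 and Tcf7l1 start regions. Of nuclear partners of β-catenin 11 of 12 starts were covered. Tcf7l2, the remaining TCF/LEF gene, had a cluster 1 start region of 3158 bp, like Lef1 and Tcf7 in cluster and unlike Tcf7l1. Bcl9, a β-catenin co-activator, had a cluster 8 start region of 1149 bp, and its paralog Bcl9l a cluster 1 gene-end region of 1848 bp.

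Among other targets 12 of 13 starts were covered, and 5 of those 12 were in cluster 8 and 1 in cluster 1, beside 24.0% and 17.6% of all covered starts. The cluster 1 start belonged to T, the brachyury gene of primitive streak and mesoderm (1250 bp). The 2 paralogs of Cdx1 differed, with a cluster 6 region of 3552 bp at Cdx2 and a cluster 7 region of 719 bp at Cdx4. The stem cell genes that TCF7L1 is known to repress also had covered starts, 4 of 4, beside 61.4% of all protein-coding genes with a listed start. The start region was 567 bp in cluster 1 at Esrrb, 3471 bp in cluster 4 at Tfcp2l1, 5272 bp in cluster 3 at Klf2 and 4158 bp in cluster 6 at Nanog.

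**Figure D4:**
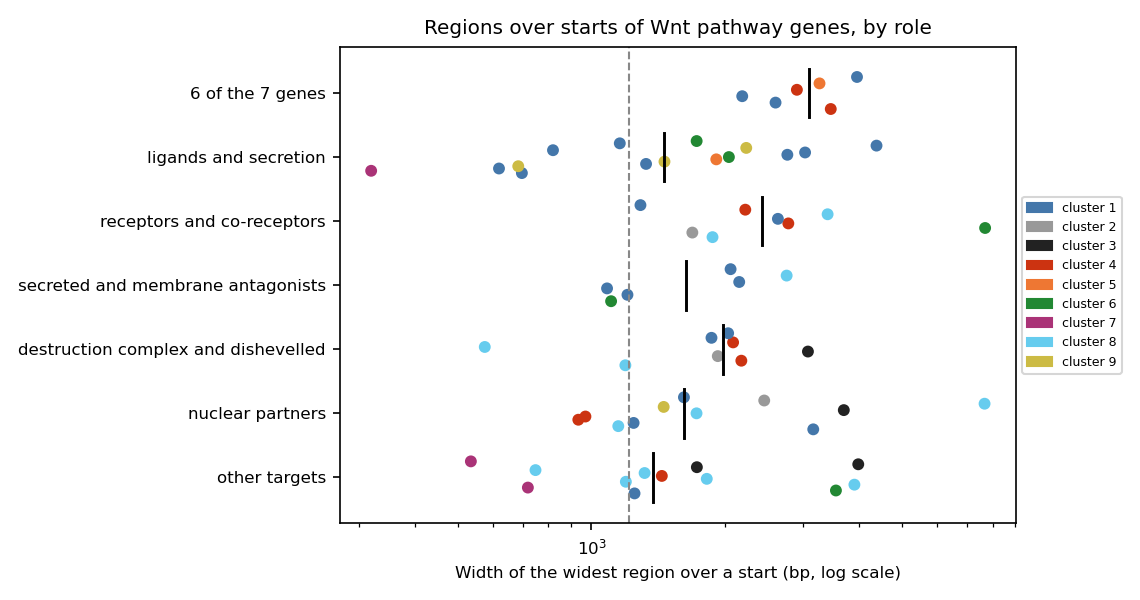
Width of the widest region over a listed start for Wnt pathway genes with a covered start (x axis in bp, log scale), by role. Each point is a gene coloured by the cluster of that region, black bars are medians, and the dashed line is the median of 1214 bp over all protein-coding genes with a covered start. All 6 points of the top row lie to the right of the line.

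By cosine similarity of the number of regions per cluster within 50 kb, computed against 9770 other protein-coding genes with at least 8 regions, Esrrb was among the 3 genes most like Tcf7l1 (0.978, 23 regions), after Mipep and Slc25a13 (both 0.979). Sp5 itself had 7 regions, fewer than that minimum of 8. The 3 genes most like Sp5 were Kirrel (0.984) and the neighbouring retinoic acid hydroxylase genes Cyp26a1 and Cyp26c1 (both 0.981). The most similar genes were Atxn7, Tspan3 (both 0.995) and Plekhm2 (0.991) for Axin2, and Arpc5 (0.994), Dapp1 (0.993) and Lamtor3 (0.985) for Lef1. For Cdx1 they were Spata31d1a (0.994), Ccar2 and Ece2 (both 0.992), and for Ctnnb1 they were Tldc2, Enc1 (both 0.983) and Igfn1 (0.982). For Tcf7 they were Skp1 (0.991), Copz2 (0.990) and Olfr1371 (0.983), of which Skp1 shares 10 regions with Tcf7 and Olfr1371 shares 8. With few regions per gene many genes reach such values, so they describe composition only.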

How the data were processed

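ACC-seq was made in 6 libraries of R1 cells, and 1 deposited table for the whole series was used. Per the submitters' processing notes the authors used cutadapt 1.18, Bowtie2 2.3.3.1, Picard and SAMtools 1.6 with mm10. The sources used here do not state the region calling, the merging or the clustering. The authors' deposited table has 4 columns (chromosome, start counted from 0, end, cluster name) and no signal. Depth and its precision are therefore unknown, and the planned limma fits between groups, with or without the replicate number, had no values. Starts are given counted from 1.

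Regions were placed by midpoint against 21883 protein-coding genes of a RefSeq gene table (GRCm38.p6), and starts were taken from its promoter windows, which held 11 windows for 6 of the 7 genes. A gene's start counted as covered where a region spanned it. The gene table has gene limits alone, and no exon, intron or UTR could be assigned. Percentages over all genes or regions are the background for each count. Intervals are exact binomial. No test was made. The members, lists and motifs were chosen with earlier results of these data known. Named were all members, the first 3 genes of each role list, including the list of genes repressed by TCF7L1, genes overlapping a member's window and the 3 most similar genes by cosine, and the cell type markers. Gsk3a, Gsk3b and Cd9 were named after their values were seen. Start coverage and the crowding count were added after seeing the data, and the 2 kb limit for width was not planned. The placement code was tested on simulated regions. Figures were drawn with matplotlib 3.10.9, intervals came from SciPy 1.17.1, and tables were handled in Python 3.11.15 with pandas 2.3.3 and numpy 2.4.6.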

Additional observations from a re-analysis of the deposited data

How the results depend on the processing

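No paired analysis was possible because the table holds no value per library, so neither the replicate number nor a left-out library could enter a fit. The number of distinct regions was 107 within 50 kb and 65 within 10 kb. It stayed within 1.5 times with 20 kb (77), 100 kb (154) and any overlap (107). Of 117 alternative values of the cluster shares, 114 stayed inside the exact binomial interval of the share reported. The other 3 were those of cluster 3, which became 0 without Tcf7l1, without gene-end regions, and when regions nearest to another gene were left out, since its single region lies at Tgoln1. The median width stayed inside its interval (432 to 616 bp) in all 8 alternatives. The number of members with a gene-end region depended on the distance allowed, with 3 at 1 kb, 1 at 500 bp, 7 at 2.5 kb and 6 with any overlap of a limit. For the other pathway genes it was 77, 55, 94 and 81. The number of members with a covered start was 6 with both alternatives added later, a region within 500 bp of a start and the first listed start only. Unknown depth limits every statement about a region that is not in the list.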

Other observations

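Of the 107 regions, 9 lay within 1 kb of, or over, a limit of a long non-coding RNA gene (8.41%, beside 6.25% of all regions). Cluster 6 held 4 of the 9, and 10.7% of all 4354 such regions. The 4 were at Gm46298 beside Axin2, at Gm36603 beside Lef1, and at Gm31391 and Gm31249 inside Tcf7l1. Upstream of Ctnnb1 there were 3, with cluster 7 at Gm51664 and 1700020M21Rik and cluster 9 near the upper limits of 4930593C16Rik and Gm38502, which overlap. The last 2 were a cluster 5 region at the other end of Gm36603 and a cluster 9 region at Gm46632 near Cdx1. Cluster 1 held 0 of the 9, and 21.7% of all such regions. These genes were singled out after their values were seen, and no test was made.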
